A study of Mus musculus with 4 samples.

Results

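Guidance genes encode the secreted and membrane-bound cues, first known from growing nerve fibres, that attract, repel or halt moving cells, together with the receptors that read them. The genes described here were chosen by name. They are every listed semaphorin, plexin, neuropilin, ephrin, Eph receptor, Slit, Robo, netrin and Unc5 gene in a table of 23444 gene symbols. The name rule matched 68 genes, 35 for ligands and 33 for receptors, and 56 of them reached a level of 1 FPKM (fragments per kilobase of transcript, scaled to the mapped fragments of a library) in at least 1 library. Apart from that minimum, expression did not enter the name rule, but the members were chosen with earlier results of these data known.

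RNA-seq was done on lung fibroblasts sorted as Pdgfra+, that is, carrying the platelet-derived growth factor receptor alpha. All mice were WT and of the C57BL6 strain, and the 4 groups are ages: embryonic day 16.5 (E16.5) and 18.5 (E18.5), and postnatal day 7 (P07) and 28 (P28). Each age has a single library, so a difference has a size but no spread between animals, and nothing could be tested. Nothing says whether animals were pooled. Depth behind the values is unknown, because FPKM keeps no totals.

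Semaphorins signal through plexins, and most class 3 semaphorins also need a neuropilin to bind. Ephrins are tied to the cell surface and bind Eph receptors on a touching cell, with signals passing both ways. Slits bind Robo receptors, and netrins bind Dcc, neogenin and Unc5 receptors. In the lung these families are known for airway branching, for the patterning of blood vessels and for the septation that forms alveoli.

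The libraries differ in scale and in the cell types they carry, and both touch the results. The E18.5 library ran low: 94.3% of the 7930 genes that reached 1 FPKM throughout had an E18.5 value under their mean over the other ages. Values are therefore given as deposited, and differences both as deposited and after median-ratio scaling, with factors of 1.15, 0.581, 1.38 and 1.08 in order of age. Pdgfra and the other 9 genes of a general fibroblast list were above 1 FPKM in every library. Summed FPKM of that list was 2334 (E16.5), 1819 (E18.5), 4128 (P07) and 8130 (P28). Summed FPKM of 15 endothelial markers was 50.3 (E16.5), 54.1 (E18.5), 1269.6 (P07) and 309.5 (P28), and none of them was at 0 in any library. Summed FPKM of 13 leukocyte markers was 1781, 96.4, 21.2 and 5067 in order of age, and at P28 the lysozyme gene Lyz2, which alveolar epithelium also expresses, made up 5062 of it. Cd79a was at 0 at E18.5, as was S100a8 at P28. Alveolar epithelial markers (13 genes) reached 12056 FPKM at P28, and airway epithelial markers (7 genes) 19637, against 42.6 and 28.1 at P07. Pericyte markers (9 genes) summed to between 25.0 and 74.7, mesothelial markers (7 genes) were highest at P28 (192) and lymphatic endothelial markers (5 genes) at P07 (179). Smooth muscle and contractile markers (8 genes) summed to 394 (E16.5), 207 (E18.5), 608 (P07) and 103 FPKM (P28). Nerve and Schwann cell markers (8 genes) summed to between 1.46 and 7.58. In a bulk sample, more cells of a type and more RNA per cell cannot be told apart.

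The guidance genes were most abundant as a group at P07. Their share of summed FPKM was 0.189% (E16.5), 0.241% (E18.5), 0.388% (P07) and 0.216% (P28). Of the 39 members that reached 5 FPKM anywhere, 24 were highest at P07 (61.5%), where 46.3% of all symbols passing the same minimum were highest. After scaling, 32 members reached 5 FPKM, and 15 of them were highest at P07 (46.9%), where 20.5% of all symbols were. At P28, 7 members were highest as deposited (17.9%, beside 24.3% of all symbols) and 9 after scaling (28.1%, beside 29.9%). At E18.5, 3 were highest as deposited (7.69%, beside 2.38%) and 5 after scaling (15.6%, beside 23.8%). At E16.5, 5 were highest as deposited (12.8%, beside 27.0%) and 3 after scaling (9.38%, beside 25.7%). The age of the highest value was the same under both scales for 27 members. Ligand genes summed to 133 (E16.5), 96.5 (E18.5), 396 (P07) and 246 FPKM (P28), and receptor genes to 208, 145, 359 and 229. Both sums were highest at P07 as deposited and after scaling, although the scaled receptor sums at P07 (260.4) and E18.5 (250.03) lay close together.

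**Figure D1:**
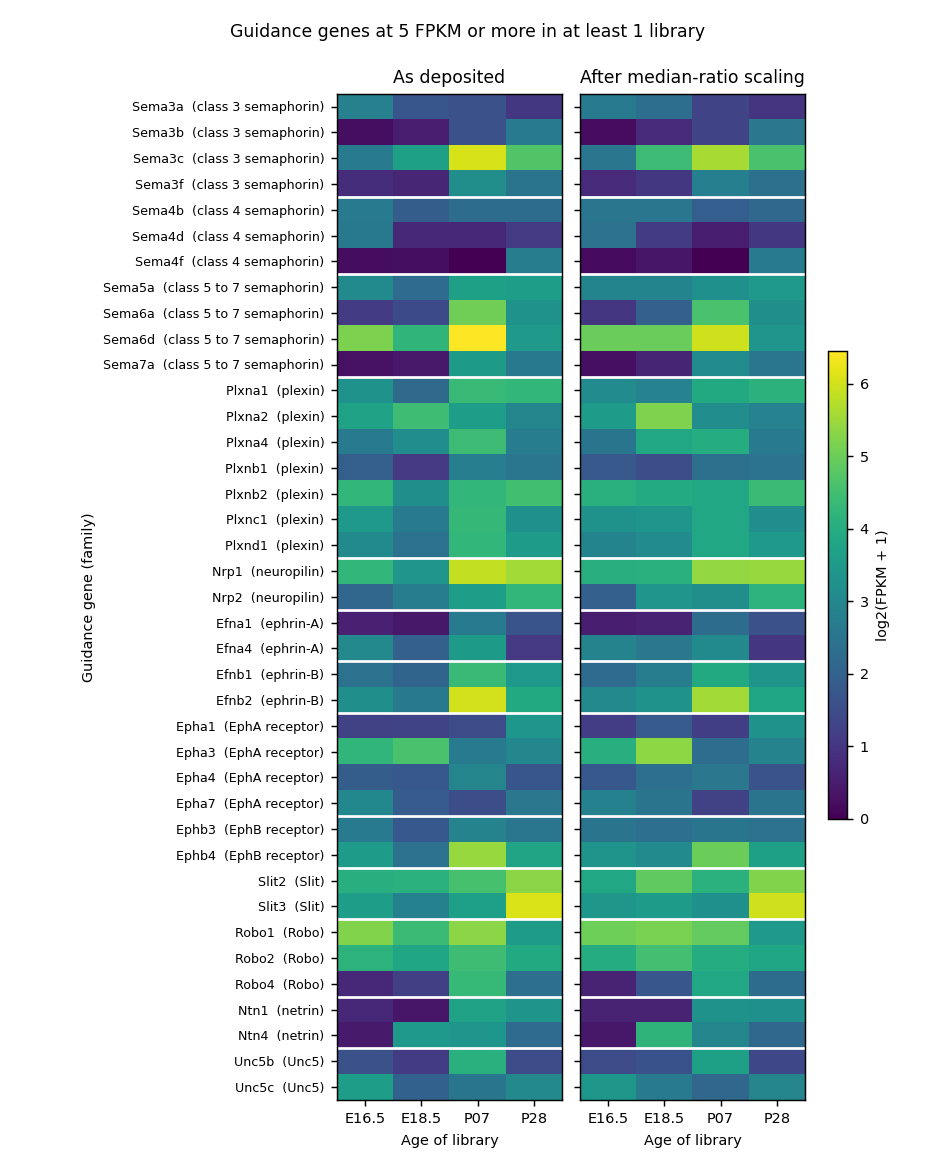
Each row is a guidance gene that reached 5 FPKM in some library, ordered by family, and each column an age; colour is log2(FPKM + 1), as deposited on the left and after median-ratio scaling on the right. Sema3c, Sema6d, Efnb2, Ephb4 and Nrp1 are bright at P07, Slit3 is brightest at P28, and Epha3 and Plxna2 are brightest at E18.5 in both panels.

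Some members with large differences between ages can be shown with their promoters, since these genes differed in opposite directions over the course. Sema6a, which had the largest difference of P07 against E16.5, is not among them. The windows run from 250 bases before to 50 bases after the RefSeq start on GRCm38.p6. They are shown for Robo4, Sema3c and Sema7a, which had large positive differences of P07 against E16.5, for Epha3, which had the largest negative one among members counted after scaling, and for Slit3, whose scaled difference of P28 against P07 was the largest positive one among those counted. The genes were picked after their values were seen, from members with a single listed start. Capitals mark matches on either strand to GGGCGG (the GC box), AGGAAG (a core bound by ETS factors) and TATAAA (the TATA box).
Robo4: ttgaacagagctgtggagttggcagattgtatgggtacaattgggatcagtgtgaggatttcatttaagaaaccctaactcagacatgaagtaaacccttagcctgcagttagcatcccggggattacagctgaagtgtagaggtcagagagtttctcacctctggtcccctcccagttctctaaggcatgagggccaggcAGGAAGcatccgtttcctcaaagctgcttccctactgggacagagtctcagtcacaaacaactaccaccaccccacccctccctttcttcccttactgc
Sema3c: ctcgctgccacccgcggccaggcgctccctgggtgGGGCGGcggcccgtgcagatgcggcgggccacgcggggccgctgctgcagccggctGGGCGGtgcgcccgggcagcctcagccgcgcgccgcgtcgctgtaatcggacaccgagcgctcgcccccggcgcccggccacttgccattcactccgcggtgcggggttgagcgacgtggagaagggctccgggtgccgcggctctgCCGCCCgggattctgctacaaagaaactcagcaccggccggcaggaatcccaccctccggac
Sema7a: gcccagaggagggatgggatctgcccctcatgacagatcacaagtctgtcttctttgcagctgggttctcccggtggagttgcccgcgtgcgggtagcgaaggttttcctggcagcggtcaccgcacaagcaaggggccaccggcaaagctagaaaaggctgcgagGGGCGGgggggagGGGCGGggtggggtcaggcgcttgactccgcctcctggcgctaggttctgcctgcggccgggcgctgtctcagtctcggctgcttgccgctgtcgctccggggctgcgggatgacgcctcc
Epha3: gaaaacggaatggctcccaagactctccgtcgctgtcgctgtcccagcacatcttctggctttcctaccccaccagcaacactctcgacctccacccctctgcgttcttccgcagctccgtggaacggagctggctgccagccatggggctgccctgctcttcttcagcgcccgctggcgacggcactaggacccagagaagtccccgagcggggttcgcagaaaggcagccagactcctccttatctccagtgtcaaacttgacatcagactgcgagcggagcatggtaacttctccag
Slit3: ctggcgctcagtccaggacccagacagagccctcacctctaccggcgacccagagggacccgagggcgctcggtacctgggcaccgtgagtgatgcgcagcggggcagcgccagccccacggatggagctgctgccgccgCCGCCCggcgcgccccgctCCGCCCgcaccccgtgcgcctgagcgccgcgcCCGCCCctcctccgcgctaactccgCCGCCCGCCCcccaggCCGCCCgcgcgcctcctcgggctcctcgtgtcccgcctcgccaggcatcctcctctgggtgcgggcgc
The windows lie at chr9:37401722-37402021, plus strand (Robo4), chr5:17574566-17574865, plus strand (Sema3c), chr9:57939862-57940161, plus strand (Sema7a), chr16:63864126-63864425, minus strand (Epha3) and chr11:35121206-35121505, plus strand (Slit3). Slit3 held 6 GC boxes, of which 2 overlap, Sema3c 3 and Sema7a 2, while Robo4 held none and a single AGGAAG. Epha3 held none of the 3 motifs. Of all 32851 promoter windows, 35.7% held GGGCGG, 35.4% AGGAAG and 13.6% TATAAA. Of the 75 windows listed for 59 guidance genes, 70.7% held GGGCGG, 37.3% AGGAAG and 2.67% TATAAA. Robo4 had 2 CpG dinucleotides in its 300 bases, Sema3c 42 and Slit3 41, beside a median of 19 over guidance windows and 7 over all windows. These matches describe the letters of the windows and were not tied to the expression values.

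P07 was set against E16.5, which leaves out the E18.5 library. The pair compares Pdgfra+ sorted cells taken while alveoli form with those taken from the fetal lung. Under both scales 5 semaphorins (Sema3c, Sema3f, Sema6a, Sema6d and Sema7a), Efnb1, Efnb2 and Ephb4, both neuropilins, Plxna4, Robo4, Ntn1, Ntn4 and Unc5b were at least 2-fold higher at P07. Sema3a, Epha3, Epha7 and Unc5c were lower. A gene was counted when its difference on log2(FPKM + 1) was at least 1 (2-fold) and its higher library was at 5 FPKM or more. Of 36 members passing the minimum, 19 were at least 2-fold higher at P07 and 5 lower, where 15.7% and 6.68% of all 7055 genes were. After scaling, 15 of 30 were higher and 4 lower, where 12.3% and 9.62% of 6164 genes were. The median log2 difference was 1.05 over the members and 0.23 over all genes as deposited, and 0.98 and -0.04 after scaling. Beside these, 15 of 15 endothelial and 3 of 4 pericyte markers were higher at P07 and 12 of 12 leukocyte markers lower, under both scales. As deposited, 3 of 3 lymphatic endothelial and 4 of 4 mesothelial markers were higher too. Of 10 fibroblast markers, 1 was higher under both scales and 1 lower after scaling. The part of these cell types in the members' values was not tested.

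Among the class 3 semaphorins, secreted ligands that use neuropilins, Sema3c (GRCm38 chromosome 5, 17574281 to 17730268, plus strand) stood out. It was at 5.47 (E16.5), 11.8 (E18.5), 65.8 (P07) and 25.1 FPKM (P28). Its log2 difference of P07 against E16.5 was 3.37 as deposited and 3.08 after scaling, and the E16.5 library held its lowest value under both scales. Sema3f was at 0.810, 0.622, 8.11 and 4.58 FPKM from youngest to oldest, and Sema3g, at most 4.36, was likewise highest at P07. Sema3a, a repellent for nerve fibres and endothelial cells, ran the other way, at 6.03, 2.32, 2.04 and 1.08 FPKM, lower at each successive age under both scales. The ratio of Sema3c to Sema3a, which no scaling of a library can move, was 0.908 (E16.5), 5.09 (E18.5), 32.3 (P07) and 23.2 (P28). Sema3b was highest at P28, at 5.22 FPKM, against 2.05 at P07 and 0.188 at E16.5. Sema3d and Sema3e also had their highest values at P28, 3.67 and 1.38 FPKM.

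The membrane-bound class 5 to 7 semaphorins held the most abundant member of all. Sema6d, a ligand of class A plexins, was at 35.0 (E16.5), 17.6 (E18.5), 86.4 (P07) and 10.3 FPKM (P28). Its log2 difference of P07 against E16.5 was 1.28 as deposited and 1.02 after scaling, but 0.93 under upper-quartile scaling, short of 2-fold. The P28 value was the lowest of the 4. Sema6a was at 1.17, 1.71, 31.9 and 8.98 FPKM from youngest to oldest, the largest log2 difference of any member between P07 and E16.5 (3.92, or 3.58 after scaling). Sema7a, which is anchored to the membrane by a lipid, was at 0.222, 0.348, 10.5 and 5.13 FPKM. It differed by 3.23 on the log2 scale (2.85 after scaling). Sema5a varied less, between 3.80 at E18.5 and 11.6 at P07, and after scaling its highest value was at P28 (10.2). Sema5b reached 1.69 FPKM at P07 and was listed at 0 at P28, Sema6c did not pass 1.02 FPKM and Sema6b stayed under 1 FPKM.

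Class 4 semaphorins, membrane proteins best known from immune cells and nerve, stayed under 6 FPKM. Sema4d was at 5.07 (E16.5), 0.678 (E18.5), 0.639 (P07) and 1.14 FPKM (P28), and Sema4a at 3.89, 0.142, 0.194 and 3.03. Of the 13 leukocyte markers, 12 were at least 2-fold lower at P07 than at E16.5, and the part of these cells in the Sema4d and Sema4a values was not tested. At P28 the pan-leukocyte gene Ptprc was at 0.0983 FPKM. Sema4b was between 2.77 and 5.45 FPKM and Sema4c between 1.33 and 3.47 in all 4 libraries. Sema4f was near its floor up to P07 (0.0129 to 0.183 FPKM) and at 5.64 at P28. Sema4g did not pass 1.18 FPKM.

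Both neuropilins, the co-receptors for class 3 semaphorins and for vascular endothelial growth factor, were higher at P07 than at E16.5. Nrp1 (GRCm38 chromosome 8, 128358604 to 128503363, plus strand) was at 18.3 (E16.5), 9.33 (E18.5), 56.8 (P07) and 45.9 FPKM (P28). Scaled, its P07 and P28 values were 41.3 and 42.6, so its highest age changed with the scale. Nrp2 was at 3.37, 5.52, 11.2 and 18.3 FPKM from youngest to oldest, with scaled values of 9.51 at E18.5 and 8.14 at P07. The plexins, which carry the signal into the cell, were mostly present in all 4 libraries. Of 7 plexins passing the minimum, 3 were at least 2-fold higher at P07 than at E16.5 and none lower as deposited, beside 15.7% higher over all genes. After scaling 1 of 6, Plxna4, was higher, which is near the 12.3% over all genes. Plxna4 was at 5.39, 7.93, 20.5 and 5.67 FPKM, and Plxnd1, a receptor for Sema3e known from endothelium, at 7.42, 4.42, 18.4 and 10.8. Plxna1 was at 8.77, 3.66, 19.4 and 18.1 FPKM, and 10.7% of its exonic bases are shared with an antisense gene, Gm26811, whose reads cannot be told from it without strand. Plxnb2 kept between 8.28 and 21.6 FPKM, Plxnc1 between 5.48 and 18.8, and Plxnb1 between 1.10 and 5.74. Plxna2 was the exception, at 12.1, 21.0, 11.0 and 6.79 FPKM, highest at E18.5 under both scales. Plxna3 did not pass 1.40 FPKM, and Plxnb3 did not pass 0.240.

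**Figure D2:**
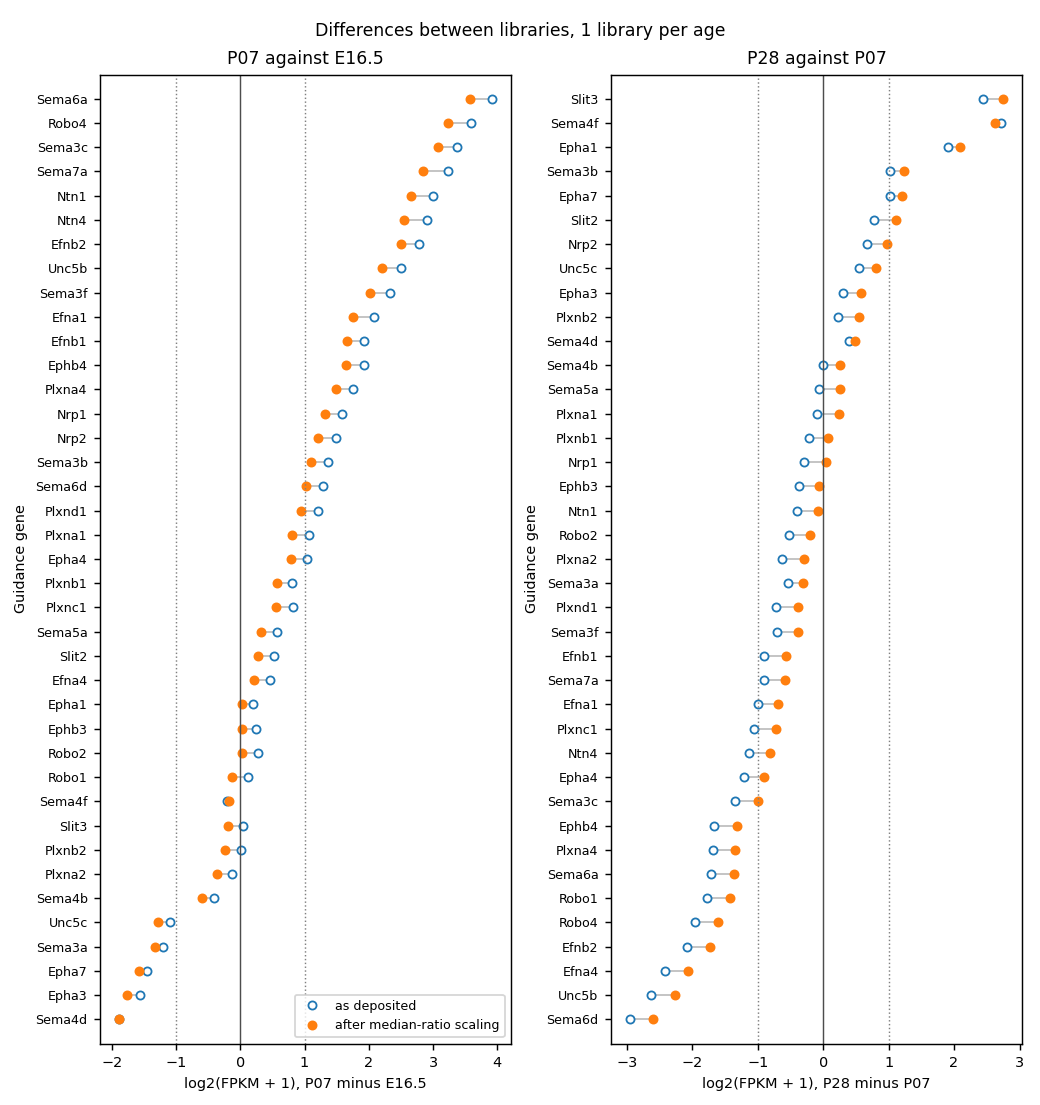
Each row is a guidance gene that reached 5 FPKM in some library, and the horizontal axis is the difference on log2(FPKM + 1), P07 minus E16.5 on the left and P28 minus P07 on the right, as deposited (open) and after median-ratio scaling (filled); dotted lines mark 2-fold. Sema6a lies furthest to the right for P07 against E16.5 (3.92 as deposited), and Slit3 (2.44) and Sema4f (2.71) do so for P28 against P07, with Sema6d furthest to the left (-2.96).

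Efnb1, Efnb2 and the receptor gene Ephb4 were high at P07. Ephrin-B2 and EphB4 are a pair that marks arterial and venous endothelium and is read in both directions. Efnb2 (GRCm38 chromosome 8, 8617434 to 8661242, minus strand) was at 8.32 (E16.5), 5.14 (E18.5), 63.1 (P07) and 14.2 FPKM (P28), a log2 difference of 2.78 between P07 and E16.5 (2.51 after scaling). Ephb4 (GRCm38 chromosome 5, 137350109 to 137378669, plus strand) was at 10.5, 4.34, 42.7 and 12.7 FPKM, and it differed by 1.92 (1.65 after scaling). Within each library the ratio of Efnb2 to Ephb4 stayed between 0.789 at E16.5 and 1.48 at P07. Efnb1 followed at 4.36, 3.19, 19.4 and 9.86 FPKM, while Efnb3 did not pass 1.48. Of the EphB receptors, Ephb3 was between 2.40 and 6.40 FPKM, Ephb2 was highest at E16.5 (3.58), and Ephb6 and Ephb1 reached 1.41 and 0.937 at P28.

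The A class split in another way. Epha3 (GRCm38 chromosome 16, 63543534 to 63864175, minus strand) was the most abundant Eph receptor before birth, and it was at 18.0 (E16.5), 23.2 (E18.5), 5.41 (P07) and 6.88 FPKM (P28). Its log2 difference of P07 against E16.5 was -1.57 as deposited and -1.76 after scaling, and of P07 against E18.5 it was -1.91 and -3.05. Epha7 was at 7.04, 2.65, 1.93 and 4.91 FPKM, also lower at P07 than at E16.5 under both scales. Epha4, which binds ephrins of both classes, was at 2.75, 2.40, 6.71 and 2.31 FPKM. Epha2, an EphA receptor of epithelium and endothelium, reached 4.89 FPKM at P07, against 0.674 at E16.5. Epha1, known from epithelium, was at 9.46 FPKM at P28, against 1.78 at P07, where the epithelial marker lists were also highest at P28, and their part in it was not tested. Epha1 also shares 6.01% of its exonic bases with Zyx. Of the ephrin-A ligands, Efna4 was at 7.26, 2.92, 10.3 and 1.11 FPKM, Efna1 reached 5.36 at P07, against 0.508 at E16.5, Efna5 reached 3.61 at P28 and Efna2 1.85 at E16.5. Efna4 shares 10.5% of its exonic bases with an antisense gene. Epha5, Epha6, Epha8, Epha10 and Efna3 stayed under 1 FPKM in every library.

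Of the Slits, large secreted ligands, Slit2 and Slit3 had their highest values at P28. Slit3 (GRCm38 chromosome 11, 35121224 to 35708507, plus strand) was at 11.2 (E16.5), 6.14 (E18.5), 11.6 (P07) and 67.1 FPKM (P28). Its P28 value exceeded the next highest age by 2.44 on the log2 scale as deposited and 2.45 after scaling. Slit2 was at 15.5, 16.4, 22.7 and 39.5 FPKM, higher at each successive age as deposited, whereas the scaled values were 28.3 at E18.5 and 16.5 at P07. Slit1, a Slit of the nervous system, did not pass 0.0216 FPKM. Their receptor Robo1 was at 36.2, 20.0, 39.4 and 10.8 FPKM, and Robo2 at 17.0, 12.9, 20.7 and 14.0. Robo1 was lowest at P28 under both scales, with a log2 difference of -1.77 against P07 (-1.42 after scaling). The ratio of Slit3 to Robo1 was 0.309 (E16.5), 0.307 (E18.5), 0.293 (P07) and 6.19 (P28), and that of Slit2 to Robo1 was 0.428, 0.822, 0.575 and 3.64. Each of these Slits thus exceeded Robo1 at P28 and at no other age, in FPKM and whatever the scale of a library. Robo3 did not pass 0.0945 FPKM.

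Robo4, the endothelial member of the Robo family, differed in course from Robo1 and Robo2 (GRCm38 chromosome 9, 37401897 to 37415115, plus strand). It was at 0.653 (E16.5), 1.35 (E18.5), 18.8 (P07) and 4.12 FPKM (P28), a log2 difference of 3.59 between P07 and E16.5 (3.23 after scaling). All 15 endothelial markers were at least 2-fold higher at P07 than at E16.5 under both scales, with log2 differences of 2.35 to 5.53 as deposited. Cdh5, the cadherin of endothelial junctions, was at 276 FPKM at P07, and its difference from E16.5 was 5.53 on the log2 scale, while Calcrl was at 272 FPKM, against 5.26 at E16.5. Efnb2, Ephb4, Nrp1, Plxnd1, Unc5b and Sema6a are also known from endothelial cells, and the part of such cells in their P07 values was not tested.

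Of the netrins, Ntn1, the founding attractant of the family, was at 0.654 (E16.5), 0.312 (E18.5), 12.3 (P07) and 9.04 FPKM (P28), a log2 difference of 3.00 between P07 and E16.5 (2.66 after scaling). Ntn4, a netrin that binds laminins in basement membranes, was at 0.388, 10.1, 9.44 and 3.74 FPKM, so it was high already at E18.5. The netrins therefore differed in their first high library. Ntn3 was highest at E16.5 (1.79 FPKM), and Ntn5 did not pass 0.219. Among their receptors, Unc5b, which endothelial cells also use, was at 2.02, 1.22, 16.2 and 1.76 FPKM, and Unc5c at 11.1, 3.02, 4.67 and 7.24. Unc5b was highest and Unc5c lower than at E16.5 in the same P07 library, under both scales. Unc5a reached 4.38 FPKM at P07, against 1.55 at E16.5, and Unc5d did not pass 0.0985. Of the other netrin receptors, Dcc did not pass 0.0967 FPKM, whereas Neo1, which encodes neogenin, was at 33.7, 26.2, 31.1 and 53.8.

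**Figure D3:**
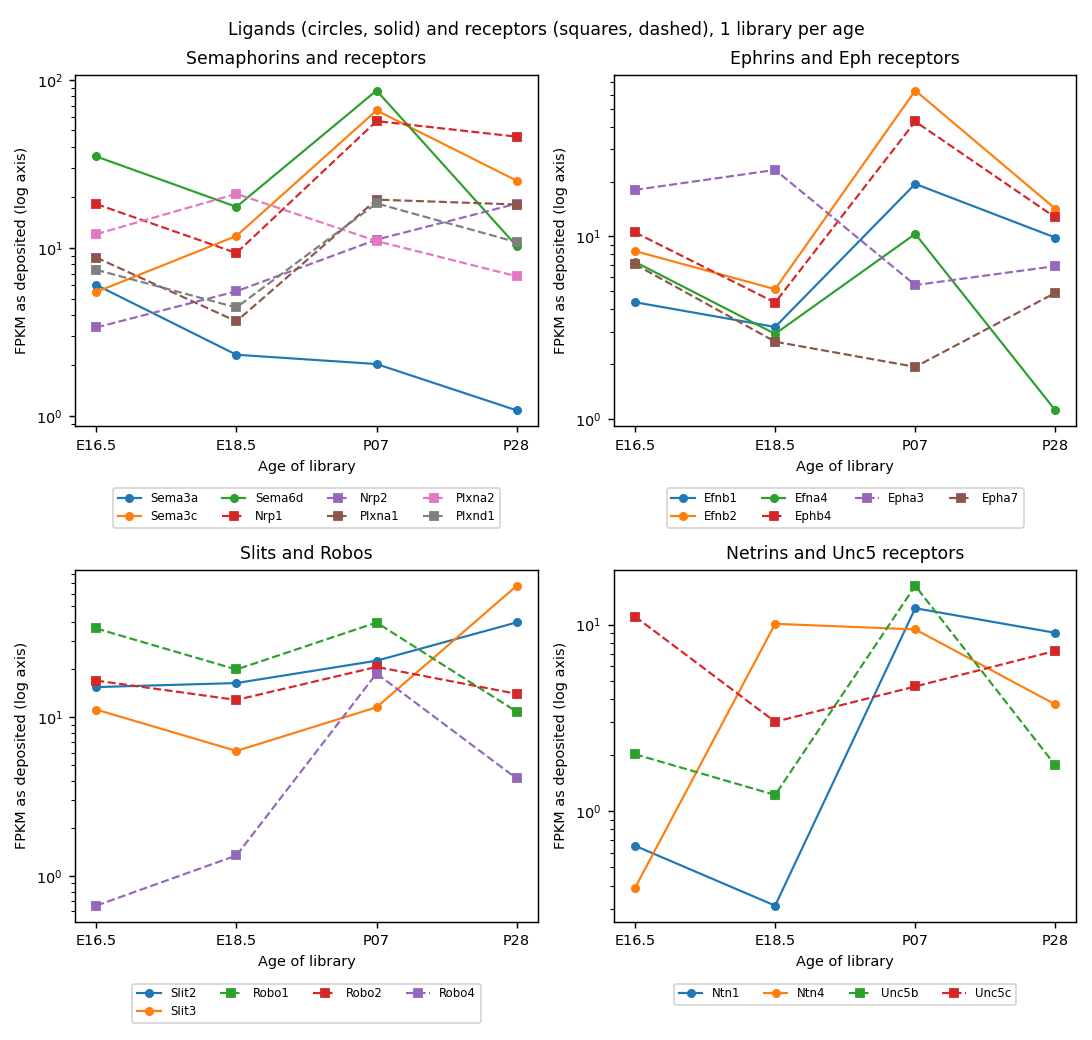
FPKM as deposited on a log axis at the 4 ages for ligands (circles, solid lines) and receptors (squares, dashed lines) of each guidance system, 1 library per point. Slit2 and Slit3 lie above Robo1 at P28 only, Efnb2 and Ephb4 peak together at P07 (63.1 and 42.7), and Ntn4 is at 10.1 FPKM at E18.5 where Ntn1 is at 0.312; points at E18.5 carry the lower scale of that library.

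The fetal pair, E18.5 against E16.5, covers the end of gestation. As deposited, 1 of 26 members was at least 2-fold higher and 8 were lower, where 2.32% and 47.4% of all genes were. After scaling, 7 of 24 were higher and none lower, where 9.34% and 12.2% were. Ntn4 was the 1 member higher under both scales, with log2 differences of 3.00 and 3.78. The others higher after scaling were Sema3c (1.88), Plxna2 (1.69), Nrp2 (1.42), Plxna4 (1.36), Epha3 (1.29) and Slit2 (1.01), whose differences as deposited ran from 0.08 to 0.98, all positive. None of the 8 members lower as deposited was counted after scaling. Of these, Sema4d kept a scaled log2 difference of -1.32 but missed the minimum, with 4.42 scaled FPKM at E16.5. The median log2 difference was -0.81 over the members and -0.96 over all genes as deposited, and 0.11 and -0.02 after scaling. Beside these, 12 of 12 leukocyte markers were at least 2-fold lower at E18.5 under both scales. After scaling, 4 of 7 endothelial, 4 of 5 alveolar epithelial, 3 of 5 pericyte and 3 of 10 fibroblast markers were higher, and none of these lists had a lower one. The part of these cell types in the fetal differences was not tested.

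P07 was compared with E18.5, across birth. Of 31 members, 23 were at least 2-fold higher at P07 and 1 was lower as deposited, where 63.3% and 2.89% of all genes were. After scaling, 13 of 28 were higher and 3 lower, where 14.7% and 12% were. The 13 were among the 23 called as deposited and comprised 5 semaphorins (Sema3c, Sema3f, Sema6a, Sema6d and Sema7a), Efnb1, Efnb2 and Ephb4, Nrp1 and Plxna1, Robo4, Ntn1 and Unc5b. Ntn1 and Sema6a had the largest scaled differences, 2.69 and 2.61. Epha3 was lower under both scales, and Plxna2 (-2.05) and Ntn4 (-1.23) were lower after scaling. The median log2 difference was 1.68 over the members and 1.23 over all genes as deposited, and 0.62 and 0.05 after scaling. All 15 endothelial markers were at least 2-fold higher at P07 than at E18.5 under both scales, and their part in the 13 was not tested.

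P28 was compared with P07, when alveolar formation ends. Sema6d, Unc5b, Efna4 and Efnb2 were among the members at least 2-fold lower at P28, and Slit3, Epha1 and Sema4f were among those higher. Of 35 members, 4 were at least 2-fold higher at P28 and 13 lower as deposited, where 10.5% and 16.9% of all genes were. After scaling, 4 of 30 were higher and 10 lower, where 14.6% and 10.3% were. The shares of members higher at P28, 11.4% as deposited and 13.3% after scaling, were near those over all genes. The 10 were all among the 13, and Sema6d (-2.96, or -2.60 after scaling), Unc5b (-2.64 and -2.27), Efna4 (-2.42 and -2.06) and Efnb2 (-2.08 and -1.73) had the largest differences. Plxna4, Robo1, Robo4, Sema3c, Sema6a and Ephb4 made up the rest. Slit3, Epha1 and Sema4f were higher under both scales, joined by Sema3b as deposited and by Slit2 after scaling. Under upper-quartile scaling Sema4f kept a log2 difference of 2.57 but fell under the minimum. Nrp1 and Ntn1 differed by less than 2-fold, with log2 differences of -0.30 and -0.40 as deposited and 0.04 and -0.08 after scaling. Beside these, 14 of 15 endothelial markers were at least 2-fold lower at P28 under both scales, with differences of -2.82 to -0.80 as deposited. Of 7 smooth muscle markers passing the minimum, 6 were also lower at P28 (5 of 6 after scaling), with log2 differences of -4.31 for Acta2 and -5.70 for Actg2 as deposited. Of 5 pericyte markers passing the minimum, 3 were lower under both scales and 1 was higher after scaling. The part of these cell types in the lower P28 values was not tested. At least 2-fold higher at P28 under both scales were 12 of 13 alveolar and 5 of 5 airway epithelial markers. Of 10 fibroblast markers, 5 were higher and 1 lower as deposited, and 6 higher and none lower after scaling. Of 6 mesothelial markers passing the minimum, 5 were higher as deposited and all 6 after scaling. The part of these cell types in the higher P28 values was not tested. The median log2 difference was -0.71 over the members and -0.36 over all genes as deposited, and -0.39 and -0.01 after scaling.

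P28 set against E16.5 gives the ends of the course. Of 32 members, 12 were at least 2-fold higher at P28 and 6 lower, where 18% and 16.9% of all genes were. After scaling, 11 of 27 were higher and 5 lower, where 19.7% and 15% were. Slit3 (2.48), Ntn1 (2.60), Epha1 (2.11), Nrp2 (2.15), Sema6a (2.20) and Sema3c (2.01) were among those higher as deposited and after scaling, with Nrp1, Efnb1, Slit2 and Sema4f. Sema3a, Sema6d, Efna4, Epha3 and Robo1 were lower under both scales, with log2 differences of -1.97 to -1.27 as deposited. Beside these, 13 of 14 endothelial, 13 of 13 alveolar epithelial and 6 of 6 mesothelial markers were at least 2-fold higher under both scales. So were 8 of 10 fibroblast markers as deposited and 9 of 10 after scaling. Lower under both scales were 11 of 12 leukocyte markers, with 1 higher, and 3 of 6 smooth muscle markers. The part of these cell types in the members' values was not tested. The comparisons share libraries, so their counts are not independent of each other.

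Genes that work with these ligands and receptors were taken from a list of 46 co-receptors and cytoplasmic relays. Of 23 passing the minimum, 12 were at least 2-fold higher at P07 than at E16.5 and 1 was lower, and after scaling 9 of 21 were higher and 1 lower, beside 15.7% higher and 6.68% lower over all genes as deposited, and 12.3% and 9.62% after scaling. The collapsin response mediator Dpysl2, a relay of class 3 semaphorin signals, was at 21.5 (E16.5), 11.1 (E18.5), 69.8 (P07) and 73.1 FPKM (P28), and its relative Dpysl3 at 2.99, 1.67, 12.5 and 21.5. Dystroglycan (Dag1), which binds Slits, was at 20.5, 16.0, 51.4 and 82.6 FPKM, and Ablim1, an actin-binding protein, at 6.39, 7.66, 42.4 and 18.1. The plexin-linked oxidase Mical2 was at 3.26, 7.88, 19.2 and 12.2 FPKM, and the kinase Fyn at 4.75, 3.15, 17.1 and 10.2. Arhgef12 was at 13.2, 11.9, 50.5 and 29.8 FPKM. Kdr, the endothelial receptor for vascular endothelial growth factor, had the largest range of the list, at 1.31, 1.74, 68.7 and 23.6 FPKM. The single gene lower at P07 was the kinase Pak1, at 0.527 FPKM, against 7.81 at E16.5.

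**Figure D4:**
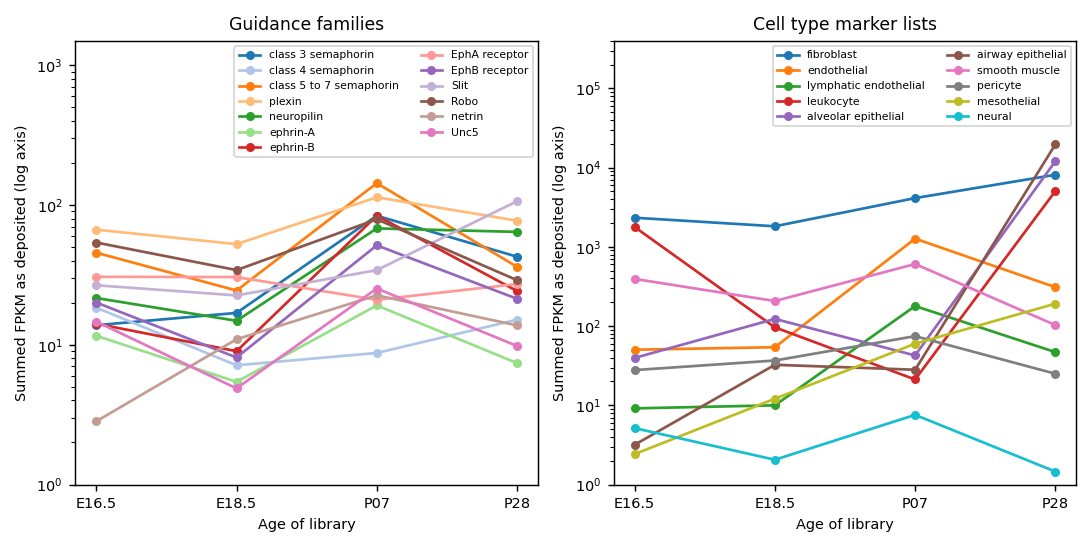
Summed FPKM as deposited on a log axis at the 4 ages, for guidance families on the left and for marker lists of cell types on the right, 1 library per point. Ephrin-B sums stand at 84.0 FPKM at P07 and 14.2 at E16.5, Slit sums at 106.6 at P28 and 34.2 at P07, and endothelial markers at 1269.6 at P07 and 50.3 at E16.5, while epithelial lists reach their highest sums at P28.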

How the data were processed

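RNA from Pdgfra+ lung fibroblasts was sequenced in 4 libraries, 1 per age. The deposited table gives FPKM computed by the authors, per the file headers. TopHat and TopHat2 2.0.9 and the builds GRCm38 and mm10 are named in the submitters' processing notes, and the program behind the FPKM is not stated there. Read depth and strand handling are unknown.

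Of 23931 entries, those sharing 1 of 258 symbols were summed, and no guidance gene was affected. Differences are on log2(FPKM + 1), which understates the change of low genes. Calls needed a difference of 1 and 5 FPKM in the higher library, and percentages of all genes use genes passing the same minimum. Median-ratio factors came from the 7930 genes at 1 FPKM or more in every library. No test was possible with 1 library per age. The code was tested on simulated data. Members at 5 FPKM or more are named with their values. Of the partner list, the 8 with the largest range among those at 10 FPKM or more are named, with Neo1, Dcc and Pak1 added after their values were seen. Members and lists were chosen with earlier results of these data known. Coordinates are from GENCODE M21 (GRCm38) and promoters from RefSeq (GRCm38.p6), matched by symbol. Python 3.11.15, numpy 2.4.6, pandas 2.3.3 and matplotlib 3.10.9 were used.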

Additional observations from a re-analysis of the deposited data

How the results depend on the processing

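Counts for the pairs without E18.5 stayed within 1.5 times their deposited values under both scalings. Upper-quartile scaling gave the same counts as median-ratio scaling for E18.5 against E16.5 (7 higher, 0 lower) and for members highest at P07 (15), E18.5 (5) and E16.5 (3), but 8 and not 9 at P28. Calls made as deposited and under median-ratio scaling were lost under upper-quartile scaling for Sema6d in P07 against E16.5 (0.93) and against E18.5 (0.92), Plxna1 in P07 against E18.5 (0.95), Efnb1 in P28 against E16.5 (0.98), and Sema4f in P28 against P07 (2.57) and against E16.5 (2.38), where its level missed the minimum. For P07 against E18.5 median-ratio scaling gave 13 higher and upper-quartile scaling 11, with 3 lower under both. A pseudocount of 0.1 gave 2 higher for E18.5 against E16.5. A pseudocount of 5 gave 1 lower for that pair, 15 higher for P07 against E18.5, 3 lower for P28 against E16.5 and 1 lower for P07 against E16.5. With no minimum, 7 were higher for P28 against P07 and 20 for P28 against E16.5. Of 195 single-gene differences, median-ratio scaling kept the call of 155, upper-quartile scaling 150, a pseudocount of 0.1 kept 189, a pseudocount of 5 kept 161 and no minimum 188. A called difference changed sign for Plxnb2 in P07 against E18.5, at -0.0869 under median-ratio and -0.1878 under upper-quartile scaling, against 1.07 as deposited. For the scale changes the constructions themselves shift every gene of a library alike; the other causes were not tested. No paired analysis was possible because each age has 1 library. The unknown depth limits what can be said of members near 0.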
